A study of Mus musculus with 10 samples.

Results

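Ptf1a, Rbpjl, Bhlha15, Nr5a2 and Gata4 are transcription factors of pancreatic acinar cells, the exocrine cells that make and secrete digestive enzymes. These 5 genes were taken by symbol from the 27716 genes that all matrices share, and each was found once. They were followed across acinar, ductal and endocrine cells of the mouse embryonic pancreas at 3 embryonic stages (E12.5, then E14.5 and finally E17.5, in days), and were set beside the digestive enzyme content of each acinar cell. All 5 passed the filter on low counts in every comparison as designed, while in some alternatives of ductal against endocrine cells 1 to 4 of them did not. Against ductal cells the name of the set held for 4 of the 5, since the levels of Nr5a2 in acinar and ductal cells overlapped, and their difference, below 1 on the log2 scale, passed the test only under some alternatives. Gata4 was also present in mesothelial cells, at levels whose range overlapped that of acinar cells.

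Single-cell RNA sequencing was done with the 10x Chromium droplet method, in which each captured transcript is counted by a unique molecular identifier (UMI). Of the 8 independent pools of embryos, 7 were of the outbred Swiss Webster strain, with no treatment. Version 1 kits were used on all live cells, with 2 pools at E14.5 (batches 1 and 2) and 1 at each of the other stages, both of the latter being part of batch 2, which was collected apart from batch 1. Version 2 kits were used on CD140a-negative cells, that is after removal of mesenchyme, so that kit version and sort cannot be told apart among Swiss Webster pools, with 1 pool for every stage, that of E17.5 run in 2 wells whose counts were summed. The eighth pool, also version 2 and E14.5, was Fev-Cre;ROSA26mTmG on a C57BL/6J background, in which Cre made under Fev control turns a membrane tdTomato reporter to GFP, so that Fev-expressing endocrine progenitors and their descendants become GFP+. GFP+ cells were mixed with GFP-negative, tdTomato+ cells of the same 3 pancreata before loading, so the share of endocrine cells in it was set by the mix. A pool held 3 to 18 pancreata, and each stage and kit version other than version 1 E14.5 had 1 Swiss Webster pool. The spread between these pools is therefore the only error available, and no embryo can be followed on its own.

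Ptf1a is a basic helix-loop-helix (bHLH) protein that forms the PTF1 complex with an E protein (Tcf3, Tcf12 or Tcf4) and an RBPJ-type protein. The complex first holds Rbpj, the effector of Notch signalling, and later its Notch-independent relative Rbpjl, and then drives the genes of the digestive enzymes. Early in development Ptf1a marks multipotent progenitors, and later the tips of the branching epithelium from which acini arise. Bhlha15, also called Mist1, is a bHLH factor of professional secretory cells that builds the secretory machinery. Nr5a2 is an orphan nuclear receptor that acts with PTF1 on enzyme genes, and Gata4 is a zinc finger factor that shares early pancreatic functions with Gata6.

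The genes lie at separate places in the mouse genome (GRCm38, GENCODE annotation). Ptf1a spans chr2:19445663-19447501 on the plus strand and is overlapped by Ptf1aos on the minus strand. Rbpjl spans chr2:164403141-164415448 on the plus strand, where Matn4 lies opposite. Bhlha15 spans chr5:144190286-144194441 on the plus strand, Nr5a2 chr1:136842571-136960448 on the minus strand and Gata4 chr14:63198922-63271692 on the minus strand, none of them overlapped. No gene overlapped a member on its own strand, and Cell Ranger by default counts reads on the sense strand of a transcript.

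Because Ptf1a and Bhlha15 bind the E-box (CANNTG, which reads the same on both strands), the 250 bases before the RefSeq transcription start are shown for the members in the RefSeq promoter table, which held 4 of the 5, with Nr5a2 at 2 starts (build GRCm38.p6, 5′ to 3′ along each gene). Capitals mark each E-box. The windows are Ptf1a chr2:19445413-19445662, Rbpjl chr2:164402944-164403193, Bhlha15 chr5:144190036-144190285, and Nr5a2 chr1:136960449-136960698 (first start) and chr1:136953631-136953880 (second start, inside the annotated gene). The last bases of the Rbpjl window also lie inside the annotated gene, which starts upstream of the RefSeq start.
Ptf1a: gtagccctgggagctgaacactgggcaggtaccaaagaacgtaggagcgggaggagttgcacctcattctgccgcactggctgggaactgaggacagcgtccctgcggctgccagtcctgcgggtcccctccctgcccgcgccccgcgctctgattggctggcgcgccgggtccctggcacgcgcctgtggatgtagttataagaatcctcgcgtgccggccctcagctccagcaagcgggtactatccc
Rbpjl: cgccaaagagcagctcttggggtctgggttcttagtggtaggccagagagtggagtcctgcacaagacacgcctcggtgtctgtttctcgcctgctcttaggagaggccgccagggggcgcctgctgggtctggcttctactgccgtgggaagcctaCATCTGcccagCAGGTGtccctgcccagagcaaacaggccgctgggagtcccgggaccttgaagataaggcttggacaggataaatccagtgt
Bhlha15: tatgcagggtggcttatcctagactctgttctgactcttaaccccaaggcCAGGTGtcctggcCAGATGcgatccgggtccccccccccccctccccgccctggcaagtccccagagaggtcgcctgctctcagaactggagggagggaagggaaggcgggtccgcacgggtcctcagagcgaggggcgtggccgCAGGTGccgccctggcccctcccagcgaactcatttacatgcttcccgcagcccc
Nr5a2 first start: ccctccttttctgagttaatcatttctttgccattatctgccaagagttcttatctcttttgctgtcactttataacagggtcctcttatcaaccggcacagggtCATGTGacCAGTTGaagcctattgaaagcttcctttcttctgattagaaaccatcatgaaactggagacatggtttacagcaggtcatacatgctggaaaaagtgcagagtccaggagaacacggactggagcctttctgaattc
Nr5a2 second start: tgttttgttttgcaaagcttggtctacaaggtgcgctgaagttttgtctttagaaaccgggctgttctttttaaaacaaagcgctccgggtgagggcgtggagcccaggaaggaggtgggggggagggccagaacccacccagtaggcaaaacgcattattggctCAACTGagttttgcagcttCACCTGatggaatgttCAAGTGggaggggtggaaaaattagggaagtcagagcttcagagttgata
Bhlha15 held 3 E-boxes, Rbpjl 2, the Nr5a2 starts 2 and 3, and Ptf1a 0. At least 1 E-box was present in 66.2% of all 32851 promoter windows of the same length, and 3 or more in 12.2%. The form CACCTG, searched on both strands and bound by PTF1, is a subset of the E-box and was present in 17.2% of windows. It occurred 2 times before Bhlha15, 1 time before Rbpjl and 1 time before the second Nr5a2 start. The sequence TGGGAA, bound by RBPJ proteins and also searched on both strands, was in 21.6% of windows, and occurred 1 time before Ptf1a and 1 time before Rbpjl. The GATA site AGATAA (both strands, in 9.99% of windows) occurred 1 time before Rbpjl and 2 times before the first Nr5a2 start. The TC-box TTTCCC (21.9% of windows) and the nuclear receptor site AAGGTCA (4.08%), also searched on both strands, were in none of these windows. These are letter matches and not measured binding.

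Cells were assigned to classes by clustering each library on genes other than the 5 members, and clusters were named from marker genes that did not include them. There were 9373 acinar cells, 7617 ductal cells and 7469 endocrine cells, the last being Ngn3+, Fev+ and hormone+ cells together with 666 endocrine cells placed in none of these (349 of the 807 endocrine cells in version 2 E12.5). The names of these classes mean acinar-like, ductal-like and so on throughout. Summed counts of 10 acinar markers, mostly enzymes, were 11492 to 200729 CPM (UMI counts scaled to a common library total) in the acinar classes and 216 to 3121 CPM in the ductal classes. Ductal markers were 2509 to 24293 CPM in ductal and 317 to 1249 CPM in acinar classes. The 8 libraries gave 98, 740, 87 and 42 acinar cells with version 1 (by stage, with batch 1 before batch 2), 2292, 3124 and 1992 with version 2 (by stage) and 998 with Fev-Cre. At most 1.79% of the barcodes of the smaller of any 2 matrices of the same kit version were found in both. Matrices of different kit versions were not compared. The matrices held 15671934 to 127151679 UMIs, with a median of 2952 to 11783 UMIs per kept barcode.

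The cells left out were not free of the members. In the unnamed clusters of 7 libraries Ptf1a was at 0 to 304.8 CPM (median 78.6 CPM, 2984 UMIs), Rbpjl at a median of 50.0 CPM and Bhlha15 at 9.56 CPM. In the mixed-marker cells of 5 libraries Ptf1a was at 15.6 to 218.6 CPM. The acinar class therefore does not hold every cell with these transcripts.

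The version 1 E17.5 library stands apart. It held the fewest acinar cells (42, with 192033 UMIs in all), and its acinar class carried mesenchymal markers at 1828 CPM, against 5 to 134 CPM in the other 7 libraries, and hormone markers at 18106 CPM, against 1604 to 3230 CPM. The 11 of these cells with the lowest enzyme share had 0.118% of UMIs from enzymes, so that part of the class held few enzyme transcripts. Results that change without this library are given both ways.

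Of the 5 members, 4 separated acinar cells from ductal cells. Acinar levels of Ptf1a, Rbpjl, Bhlha15 and Gata4 were higher than ductal levels in 8 of 8 libraries, and for each of these genes no acinar library overlapped a ductal one. Overlap was examined for the members only, so the share of all genes without overlap is not known and nothing is read from this count. By edgeR's quasi-likelihood test with library as a block, 4 of the 5 members were called higher at an adjusted p below 0.05, where 30.5% of all 13657 genes tested were called in either direction, 14.2% higher and 16.2% lower. The remaining member, Nr5a2, was not called. The test scales each library by a TMM factor (trimmed mean of M-values), while the CPM printed below are shares of all UMIs, so that a fold change can be larger than the ratio of the CPM values. On library totals alone, an alternative chosen after seeing the data, the median log2 fold change of all genes was lower by 0.37 (-0.42 in place of -0.05), and 15.6% of the calls were higher in acinar cells in place of 46.8%. Ptf1a, Rbpjl, Bhlha15 and Gata4 were called higher on that scale too, where 5485 of 13657 genes were called and 856 were higher.

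**Figure D1:**
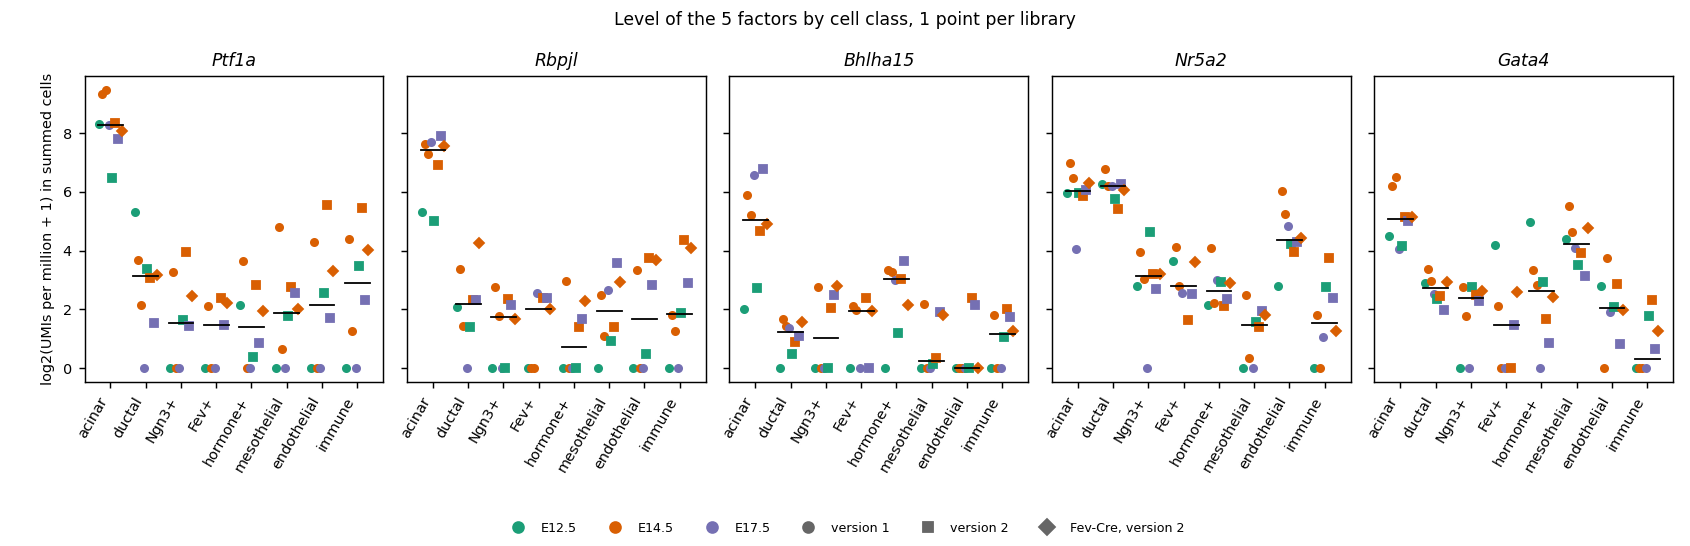
Level of each member in 8 cell classes, as log2(CPM + 1) in the summed cells of a library, with 1 point per library (colour: stage, shape: kit version or Fev-Cre) and a black bar at the median. By their medians Ptf1a, Rbpjl, Bhlha15 and Gata4 sit highest in acinar cells, while the Nr5a2 points of acinar and ductal cells overlap. For Bhlha15 and Gata4 some points of other classes reach into the acinar range.

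Ptf1a was at 88.4 CPM in its lowest acinar library (version 2 E12.5), 311.5 CPM at the median and 699.9 CPM in its highest (version 1 E14.5 batch 2). In ductal cells it ran from 0 to 38.4 CPM with a median of 7.78 CPM, and in endocrine cells from 0 to 9.15 CPM with a median of 1.71 CPM. All acinar values therefore lay above all others, while the ductal and endocrine ranges overlapped. The acinar to ductal log2 fold change was 5.65 ± 0.51 (SE, 8 libraries, edgeR adjusted p = 7.37e-06), and the acinar to endocrine one was 7.08 ± 0.46 (edgeR adjusted p = 2.1e-07). Within each kit version ductal Ptf1a was highest at E12.5, at 38.4 CPM in version 1 and 9.39 CPM in version 2. Immune cells, which should lack the gene and serve here as a reference, had 0 to 42.9 CPM with a median of 7.04 CPM. They were above the ductal cells of the same library in 5 of 8 libraries. Mixed-marker cells were set aside only among epithelial cells, so free RNA and doublets cannot be told apart in the immune values. The ductal values were above the immune ones in version 1 E12.5, where they rested on 12 UMIs in 66 cells with none in the 40 immune cells, and in version 1 E14.5 batch 2, where they rested on 2 UMIs. In the remaining library, version 1 E17.5, no UMI was seen in either class, which allows up to 4.83 CPM in ductal cells.

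Rbpjl followed the same order, with 31.3 CPM in the lowest acinar library (version 2 E12.5), 171.6 CPM at the median and 236.2 CPM in the highest (version 2 E17.5). Ductal cells held 0 to 18.3 CPM with a median of 3.62 CPM, and endocrine cells 0 to 4.61 CPM. The lowest acinar library was thus above the highest ductal one. The acinar to ductal log2 fold change was 5.11 ± 0.39 (edgeR adjusted p = 1.65e-06) and the acinar to endocrine one 6.53 ± 0.27 (edgeR adjusted p = 2.39e-08). The level in immune cells was 0 to 19.4 CPM, which covers the ductal and endocrine ranges.

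Bhlha15 was the sparsest of the members at E12.5, with 2 UMIs (3.08 CPM) in the acinar cells of version 1 E12.5 and 166 UMIs (5.71 CPM) in those of version 2 E12.5. Its acinar median was 32.6 CPM and its highest value 107.9 CPM (version 2 E17.5). Ductal cells stayed at 0 to 2.23 CPM, within the 0 to 3.02 CPM of immune cells. The acinar to ductal log2 fold change was 5.49 ± 0.42 (edgeR adjusted p = 1.8e-06). Endocrine cells held 0 to 10.2 CPM, and the acinar to endocrine log2 fold change was smaller, at 3.37 ± 0.25 (edgeR adjusted p = 4.75e-07). The endocrine range overlapped the acinar one only through the E12.5 acinar libraries, and within each library the acinar value was the higher.

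The endocrine Bhlha15 signal lay mainly in hormone+ cells, the cells that already secrete peptide hormones. Their median was 7.15 CPM over 8 libraries, and the highest value was 11.4 CPM in version 2 E17.5. Ngn3+ progenitors had a median of 1.55 CPM and Fev+ progenitors 2.84 CPM over 7 libraries. Against ductal cells, endocrine cells were higher in 7 libraries, lower in none and equal in version 1 E12.5, where both were at 0. The ductal to endocrine log2 fold change was -1.98 ± 0.38 (edgeR adjusted p = 0.000671, exact two-sided sign-flip permutation p = 0.0156 over 8 libraries). Ductal sums stayed at 0 to 2.23 CPM, so Bhlha15 passed the filter on low counts here only through the endocrine sums. Nothing is therefore read from the edgeR call. Without version 2 E17.5, or in version 1 alone, Bhlha15 fell below the filter on low counts in this comparison, so edgeR could not test it there.

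Nr5a2 gave a different picture. Its acinar levels were 15.6 CPM at the lowest (version 1 E17.5), 63.8 CPM at the median and 125.3 CPM at the highest (version 1 E14.5 batch 1), and its ductal levels 41.5, 72.1 and 109.4 CPM. The ranges overlapped almost throughout, with the acinar value higher in 5 libraries and lower in 3 (version 1 E12.5, version 1 E17.5 and version 2 E17.5). In version 2 E17.5 the order turned when enzyme UMIs were left out of the totals, to 85.0 in acinar and 75.7 in ductal cells (non-enzyme CPM). The acinar to ductal log2 fold change was 0.41 ± 0.17 (edgeR adjusted p = 0.0872), whereas the mean log2 ratio over libraries, which weights each library equally, was -0.16 ± 0.84 (SD, n = 8, exact sign-flip permutation p = 0.867). Without version 1 E17.5, where the acinar value rested on 3 UMIs, the log2 fold change was 0.52 ± 0.11 and passed the test (edgeR adjusted p = 0.00457). It also passed without version 2 E17.5, at 0.45 ± 0.15 (edgeR adjusted p = 0.036). It was called in 9 of 23 alternatives, at log2 fold changes that ran from 0.015 to 0.61 over all of them. Among these were DESeq2 (0.42, DESeq2 adjusted p = 0.0327), Leiden resolution 2 (0.54, edgeR adjusted p = 0.00861) and version 2 alone (0.61, edgeR adjusted p = 0.0421). The value of 0.61 lies above the ratio of CPM in each of the 4 version 2 libraries, which ran from -0.19 to 0.46. On library totals without TMM the log2 fold change was 0.18 ± 0.19 in version 2 alone (edgeR adjusted p = 0.478) and 0.015 ± 0.19 over the 8 libraries (edgeR adjusted p = 0.957), so the calls for Nr5a2 depend on the scaling.

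Endocrine cells held little Nr5a2, at 4.27 to 15.7 CPM with a median of 6.09 CPM. Acinar cells were higher than endocrine cells in 8 of 8 libraries (log2 fold change 3.62 ± 0.27, edgeR adjusted p = 4.38e-07), and so were ductal cells (3.23 ± 0.20, edgeR adjusted p = 3.02e-08). For the ductal comparison no library overlapped, since the lowest ductal value was 41.5 CPM. Nr5a2 in immune cells was 0 to 12.4 CPM, which lies below every ductal value and overlaps the endocrine range.

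Gata4 was at 15.6 to 89.5 CPM in acinar cells (median 32.6 CPM), 2.97 to 9.49 CPM in ductal cells and 0 to 18.8 CPM in endocrine cells. Acinar and ductal libraries did not overlap (log2 fold change 3.12 ± 0.26, edgeR adjusted p = 3.39e-06). The acinar to endocrine log2 fold change was 3.43 ± 0.50 (edgeR adjusted p = 7.09e-05), with the acinar value higher in 8 of 8 libraries. The margin differed between stages, as the version 1 E12.5 library had 21.6 CPM in acinar and 18.8 CPM in endocrine cells. Those 18.8 CPM rested on 12 UMIs, and 30.6 CPM were measured in the 41 hormone+ cells of that library. Ductal and endocrine cells did not differ by the test (0.48 ± 0.33, edgeR adjusted p = 0.229).

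**Figure D2:**
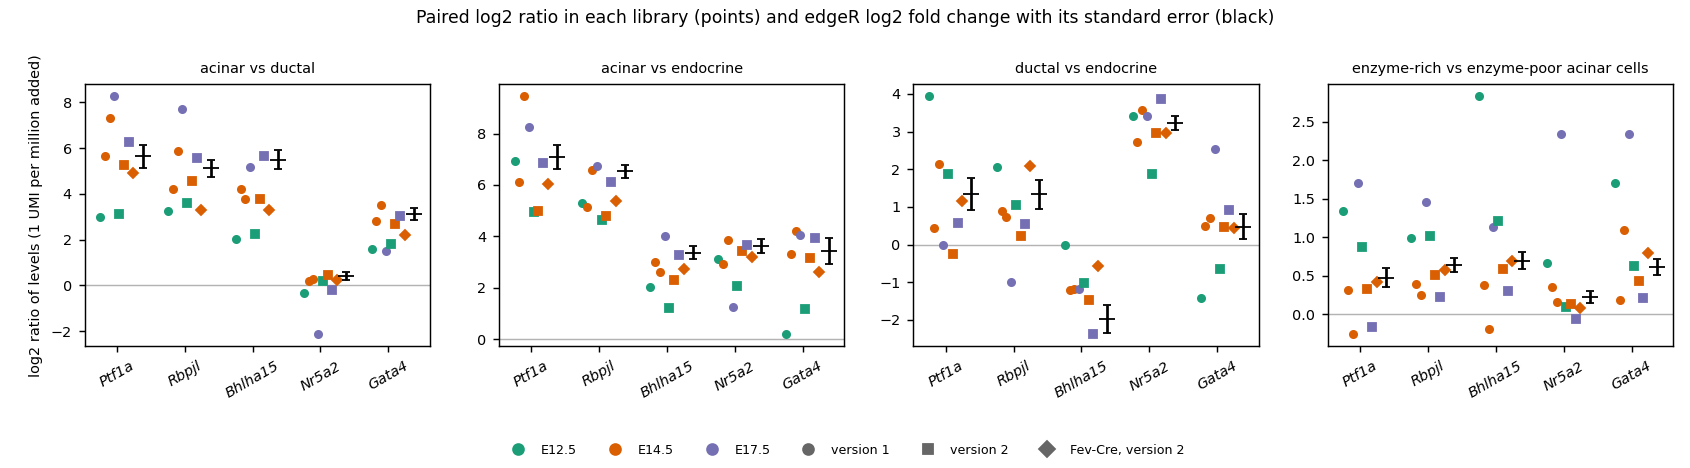
Log2 ratio of levels within each library (points, 1 CPM added to each level, colour and shape as for the levels) and the edgeR log2 fold change with its standard error (black) in the 4 paired comparisons. Points for Nr5a2 between acinar and ductal cells fall on both sides of 0, from -2.14 to 0.46, whereas those of the other 4 members are all above 1.

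All 5 members were called higher in acinar than in endocrine cells, where 59.4% of 13545 genes were called (26.2% higher, 33.2% lower). All 5 were also called on library totals alone, where 8712 of 13545 genes were called and 2285 were higher. The median log2 fold change of all genes was lower by 0.37 on that scale. There 26.2% of the calls were higher in acinar cells, in place of 44.1%. Between ductal and endocrine cells 4 members were called, against 63.1% of 13146 genes (32.1% higher in ductal cells, 31.0% lower), so that share is close to the background. Of these, Bhlha15 was called lower in ductal cells and passed the filter only through the endocrine sums, so nothing is read from its call. Nr5a2 was called with the largest fold, and Ptf1a (1.35 ± 0.42, edgeR adjusted p = 0.0144) and Rbpjl (1.34 ± 0.39, edgeR adjusted p = 0.00869) were called higher in ductal cells at levels which immune cells also showed. The Ptf1a call was lost without version 2 E12.5 (1.03 ± 0.44, edgeR adjusted p = 0.0612). Without the library block, the values were 1.35 for Ptf1a (edgeR adjusted p = 0.1) and 1.40 for Rbpjl (edgeR adjusted p = 0.0585), with Bhlha15 below the filter. In version 2 alone neither Ptf1a (1.09, edgeR adjusted p = 0.0807) nor Rbpjl (1.33, edgeR adjusted p = 0.0577) was called. By the exact two-sided sign-flip permutation test over the 8 libraries, p was 0.00781, the smallest that 8 libraries can give, for Ptf1a, Rbpjl, Bhlha15 and Gata4 between acinar and ductal cells and for all 5 between acinar and endocrine cells.

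The share of acinar cells with a UMI, after each cell was thinned to 2000 UMIs, had medians over libraries of 34.0% for Ptf1a, 28.1% for Rbpjl, 6.92% for Bhlha15, 11.3% for Nr5a2 and 5.82% for Gata4. The 64 acinar cells with fewer UMIs were left out. For Ptf1a, immune cells gave a median of 0.65% and a highest value of 3.65%, and ductal cells 1.02% and 1.82%. The Nr5a2 share was 8.23% to 19.2% in ductal cells, with 0% to 1.22% in immune cells. Median depth was 3423 to 18288 UMIs in acinar and 2351 to 8246 UMIs in immune cells before thinning. A cell with no UMI at this depth cannot be called negative.

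Outside the epithelium, 2 members had a median above the range of immune cells in a further class. Gata4 was at 7.80 to 44.4 CPM (median 17.9 CPM) in mesothelial cells, the lining of the organ, in all 8 libraries, against 0 to 4.02 CPM in immune cells. Nr5a2 was at 6.0 to 64.4 CPM (median 19.7 CPM) in endothelial cells, against 0 to 12.4 CPM. After thinning, 1.97% to 7.17% of mesothelial cells had a Gata4 UMI and 1.47% to 11.1% of endothelial cells an Nr5a2 UMI. The endothelial values rest on 133 UMIs in 817 cells, and the lowest of them, 1 UMI in version 1 E12.5, lies within the immune range. In version 2 E14.5 endothelial Nr5a2 (14.7 CPM) was below the 17.1 CPM of erythroid cells. These differences were not tested. Ptf1a and Rbpjl at their highest in erythroid cells (81.4 and 26.8 CPM, both in version 2 E14.5) exceeded the ductal level of that library, 7.50 and 4.04 CPM, and that library also had the highest Ptf1a in immune cells, 42.9 CPM.

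Among the members, Rbpjl and Bhlha15 were called between stages in acinar cells. Stages were compared in 1 fit over the 8 acinar sums with kit version as a term, with 4 pools at E14.5 and 2 at each of the other stages. From E12.5 to E14.5, 2 members were called higher, where 0.221% of 13112 genes were called (0.153% higher, 0.0686% lower). From E14.5 to E17.5, 1 member was called higher, where 6.79% of genes were called (3.67% higher, 3.12% lower). From E12.5 to E17.5, 2 members were called higher, where 8.42% were called (5.06% higher, 3.36% lower). On library totals alone 80.0% of the calls of the first comparison were higher at the later stage in place of 69.0%, 11.1% of the second in place of 54.0%, and 15.1% of the third in place of 60.1%. The median log2 fold change of all genes was lower by 0.10, 0.63 and 0.74 on that scale. Of 13112 genes, 25, 2639 and 2744 were called there, with 20, 292 and 413 higher. The member calls were again 2, 1 and 2. Where an E12.5 or E17.5 library is left out, that stage is 1 pool, which is then assumed to vary like the pools of the other stages. Stage and litter cannot be told apart within a kit version, and dissociation time rose with stage. Fev-Cre is 1 of the 4 pools at E14.5, so its genotype, background and sort enter at that stage alone. Without it 151 genes were called from E12.5 to E14.5 in place of 29. Erythroid markers, mostly globins, were also higher in the acinar class of the E17.5 libraries, at 53548 CPM (version 1) and 21185 CPM (version 2), than in all earlier ones, at 3.02 to 1505 CPM, and their part in the results was not tested.

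**Figure D3:**
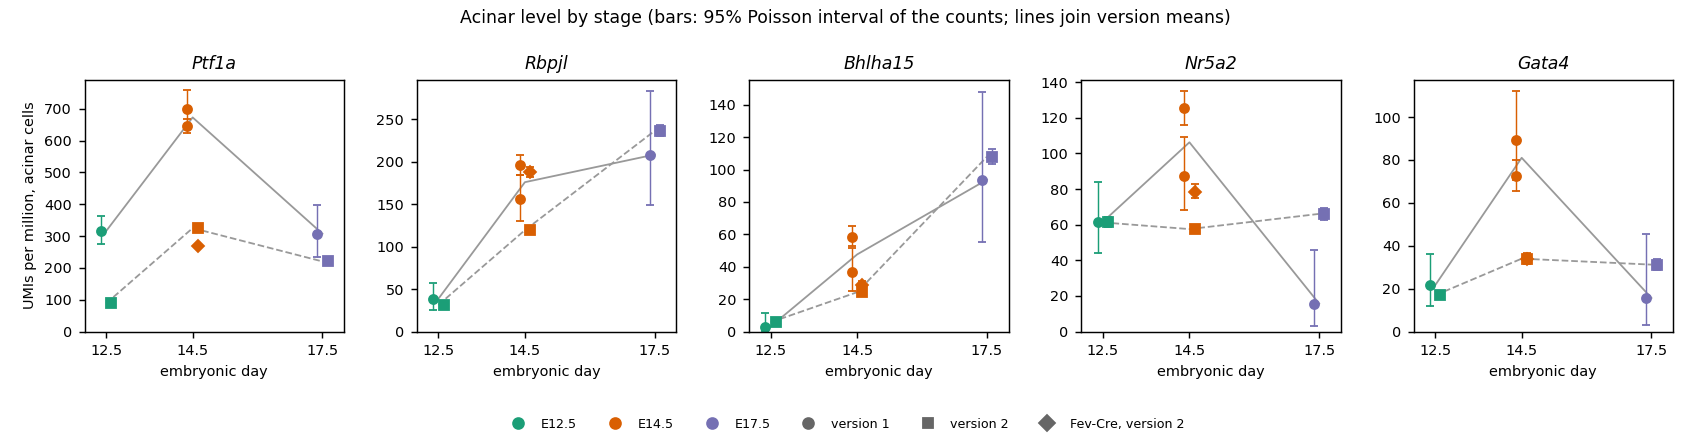
Acinar level of each member in CPM against embryonic day, with 1 point per library, bars for the 95% Poisson interval of its count (counting error only) and lines through the means of version 1 (solid) and version 2 (dashed) Swiss Webster libraries. Bhlha15 and Rbpjl climb from E12.5 to E17.5 in both kit versions, and Ptf1a is highest at E14.5.

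Bhlha15 was at 3.08 CPM (version 1) and 5.71 CPM (version 2) at E12.5. At E14.5 it was at 58.6 and 36.5 CPM in the version 1 batches, 24.3 CPM in version 2 and 28.7 CPM in Fev-Cre. The E17.5 libraries had 93.7 and 107.9 CPM. No stage overlapped another. The log2 fold change was 2.82 ± 0.49 from E12.5 to E14.5 (edgeR adjusted p = 0.0452) and 2.12 ± 0.40 from E14.5 to E17.5 (edgeR adjusted p = 0.00926). From E12.5 to E17.5 it was 4.94 ± 0.55 (edgeR adjusted p = 0.00038). In 7 of 21 alternatives the change from E12.5 to E14.5 was not called. Among them were the fit without the kit term, enzyme genes left out of the library sizes and proliferating cells left out. The first step was not called without version 1 E12.5 (2.56, edgeR adjusted p = 0.349), without version 1 E14.5 batch 2 (2.84, edgeR adjusted p = 0.136), without version 2 E12.5 (3.82, edgeR adjusted p = 1) or without version 2 E14.5 (3.01, edgeR adjusted p = 0.0891). The second was not called without version 2 E17.5 (1.17, edgeR adjusted p = 0.287).

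Rbpjl was at 38.5 CPM (version 1) and 31.3 CPM (version 2) in the E12.5 libraries, 196.0, 155.5, 119.3 and 187.7 CPM in the E14.5 libraries in the same order, and 208.3 and 236.2 CPM in the E17.5 libraries. Every E14.5 value was above every E12.5 value, and both E17.5 values were above all others. It rose from E12.5 to E14.5 (log2 fold change 2.36 ± 0.37, edgeR adjusted p = 0.0256) and from E12.5 to E17.5 (3.36 ± 0.41, edgeR adjusted p = 0.000671). The change from E12.5 to E14.5 was not called in 4 of 21 alternatives, among them the fit without the kit term. The step from E14.5 to E17.5 was 1.00 ± 0.31 (edgeR adjusted p = 0.0789), and was 1.45 ± 0.33 without version 1 E17.5, with 1 pool left at E17.5 (edgeR adjusted p = 0.0191). On library totals alone, the latter was 0.64 ± 0.32 and not called (edgeR adjusted p = 0.171). The first step lost its call without version 1 E12.5 (2.53, edgeR adjusted p = 0.225), without version 1 E14.5 batch 2 (2.37, edgeR adjusted p = 0.0896) or without version 2 E12.5 (2.13, edgeR adjusted p = 1). The E12.5 to E17.5 change was 3.10 without version 2 E12.5 (edgeR adjusted p = 0.058).

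Ptf1a took another course. It was at 315.7 CPM (version 1) and 88.4 CPM (version 2) in the E12.5 libraries. The E14.5 libraries had 646.3 and 699.9 CPM in the version 1 batches, 325.1 CPM in version 2 and 269.0 CPM in Fev-Cre, and the E17.5 libraries 307.2 and 220.2 CPM. The E14.5 library was above both other stages of its kit version, and version 1 was above version 2 at every stage, so the pooled ranges overlapped. edgeR called no step, with a log2 fold change of 1.49 ± 0.40 from E12.5 to E14.5 (edgeR adjusted p = 0.235) and -0.18 ± 0.38 from E14.5 to E17.5 (edgeR adjusted p = 0.831). Without version 1 E17.5 the first was 1.54 ± 0.31 (edgeR adjusted p = 0.0391), the second 0.45 ± 0.38 (edgeR adjusted p = 0.493), and the change from E12.5 to E17.5 was 1.99 ± 0.42 (edgeR adjusted p = 0.00869) in place of 1.31 ± 0.46 (edgeR adjusted p = 0.0952), with E17.5 then being 1 pool. On library totals the change from E12.5 to E17.5 without that library was 1.09 ± 0.36 (edgeR adjusted p = 0.0444). DESeq2 called Ptf1a higher at E14.5 than at E12.5 (1.46 ± 0.37, DESeq2 adjusted p = 0.013) and higher at E17.5 than at E12.5 (1.36 ± 0.44, DESeq2 adjusted p = 0.0207). The first of these was also called by edgeR at Leiden resolution 2 (adjusted p = 0.0162), without the filter on low counts (adjusted p = 0.000686) and with mixed-marker cells kept (adjusted p = 0.0194). The rise from E12.5 thus depended on the method and settings.

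Enzyme transcripts filled a growing part of the acinar transcriptome, which lowers the level per total UMI of every other gene. Enzymes made up 1.58% and 1.18% of acinar UMIs at E12.5 (versions 1 and 2), 5.07%, 5.41%, 4.16% and 1.86% in the E14.5 libraries with Fev-Cre last, and 14.9% and 22.3% at E17.5. Fev-Cre was the lowest of the E14.5 libraries. With the total taken over non-enzyme UMIs only (non-enzyme CPM), Ptf1a in the version 2 Swiss Webster libraries had levels of 89.4, 339.2 and 283.4 in order of stage. E14.5 stayed the highest of these. In Fev-Cre, also E14.5, Ptf1a was at 235.0 in enzyme-poor and 315.0 in enzyme-rich acinar cells, on both sides of that E17.5 value. On this scale Rbpjl in the version 2 Swiss Webster libraries had levels of 31.6, 124.5 and 304.0.

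Gata4 levels were 21.6 and 16.9 CPM in the E12.5 libraries, 72.5, 89.5, 34.0 and 34.0 CPM in the E14.5 libraries, and 15.6 and 31.2 CPM in the E17.5 libraries (versions in the same order). Its E14.5 values were all above its E12.5 values, and neither step was called (1.54 ± 0.46, edgeR adjusted p = 0.279, and -0.10 ± 0.45, edgeR adjusted p = 0.93). The 15.6 CPM at version 1 E17.5 were 3 UMIs, with a 95% Poisson interval of 3.22 to 45.7 CPM. Without that library the E12.5 to E14.5 change was 1.44 ± 0.30 (edgeR adjusted p = 0.0439) and the E12.5 to E17.5 change 2.00 ± 0.39 (edgeR adjusted p = 0.0051), where it had been 1.44 ± 0.52 (edgeR adjusted p = 0.107). With E17.5 again 1 pool, these values on library totals were 1.33 ± 0.28 (edgeR adjusted p = 0.0564) and 1.09 ± 0.36 (edgeR adjusted p = 0.0439). Without version 2 E17.5 the latter was -0.71 ± 0.75, resting on those 3 UMIs.

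Nr5a2 showed no stage trend that the 8 libraries could resolve. The E12.5 libraries had 61.6 and 61.3 CPM, the E14.5 libraries 125.3, 87.2, 57.5 and 78.6 CPM, and the E17.5 libraries 15.6 and 66.1 CPM. The log2 fold change was 0.60 ± 0.47 from E12.5 to E14.5 (edgeR adjusted p = 0.839), -0.11 ± 0.49 from E14.5 to E17.5 (edgeR adjusted p = 0.929) and 0.49 ± 0.55 from E12.5 to E17.5 (edgeR adjusted p = 0.637), the last turning to -0.26 ± 0.49 on library totals (edgeR adjusted p = 0.732). In version 2 the values stayed between 57.5 and 78.6 CPM at all stages, Fev-Cre included. Without version 2 E17.5 the E12.5 to E17.5 change was -2.05 ± 0.69 (edgeR adjusted p = 0.186) and the E14.5 to E17.5 change -2.57, which again rest on the 3 UMIs of version 1 E17.5. Without version 1 E17.5 they were 1.20 ± 0.38 (edgeR adjusted p = 0.0607) and 0.66 ± 0.36 (edgeR adjusted p = 0.272), with E17.5 as 1 pool. The sign thus depended on which E17.5 library was kept.

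The 2 wells of version 2 E17.5 hold cells of 1 suspension and show the technical spread. Acinar Ptf1a was at 214.5 and 226.3 CPM, Rbpjl at 243.5 and 228.5 CPM, Bhlha15 at 109.7 and 106.0 CPM, Nr5a2 at 63.7 and 68.5 CPM and Gata4 at 31.8 and 30.6 CPM.

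Acinar cells rich in enzyme transcripts held more Rbpjl and Gata4 than enzyme-poor cells of the same library in 8 of 8 libraries, more Bhlha15 in 7 and more Ptf1a in 6. The enzyme share of a cell is the part of its UMIs that comes from 30 enzyme genes found in the matrices, and cells were split at the median of their library. Levels are in non-enzyme CPM, and the enzyme genes were left out of the test because they set the split. Of the 5 members 4 were called higher in enzyme-rich cells, where 5.5% of 12571 genes were called in either direction (3.61% higher, 1.89% lower). On library totals alone 3 of them were called, where 588 of 12571 genes were called and 256 were higher. On that scale 43.5% of all calls were higher in place of 65.6%. In version 1 E17.5 the enzyme-poor cells carried mesenchymal and hormone markers, so this library compares cells of unlike content for every member. It gave the highest log2 ratio for Ptf1a (1.71), Rbpjl (1.46) and Gata4 (2.33), though not for Bhlha15. The counts of libraries above include it, as does the exact sign-flip permutation p of 0.00781 for Rbpjl and Gata4 given below. Its part in them was not tested. Enzyme-poor cells also held more ductal markers in 8 of 8 libraries, for example 1983 against 498 non-enzyme CPM in version 2 E14.5, and the part of this in the results was not tested.

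**Figure D4:**
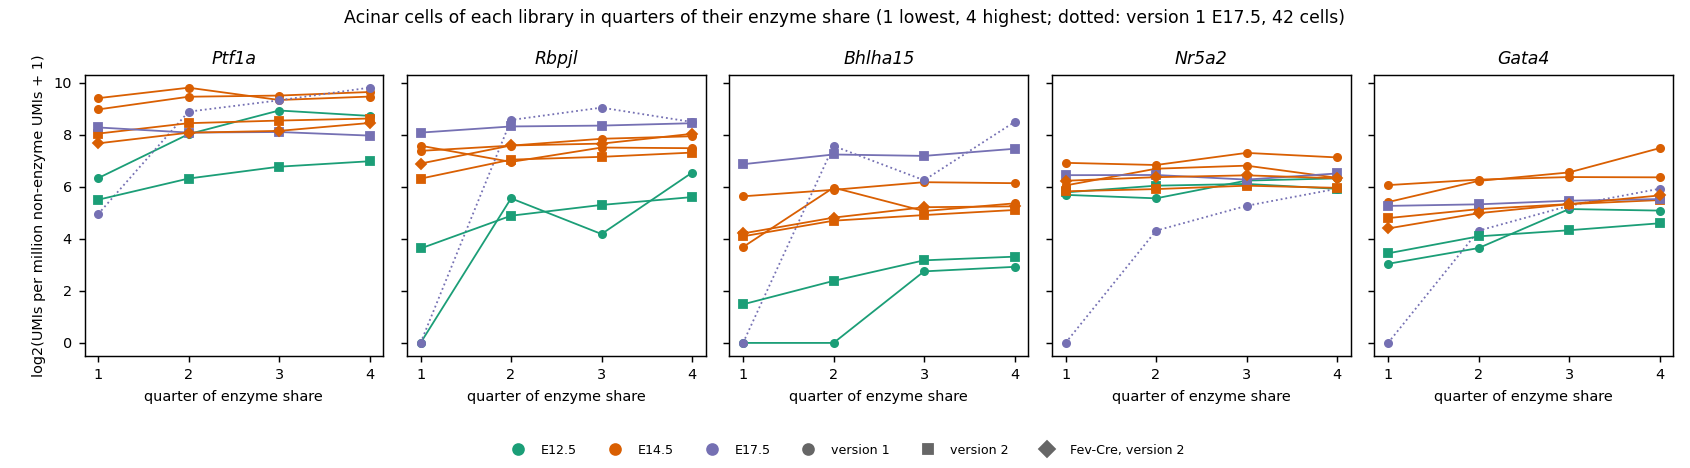
Level of each member, as log2(non-enzyme CPM + 1), in the acinar cells of each library divided into 4 groups of equal size by enzyme share (1 lowest, 4 highest), with 1 line per library. Rbpjl and Gata4 climb in most libraries, while Nr5a2 changes least outside version 1 E17.5 (dotted, 42 cells).

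Rbpjl was higher in enzyme-rich cells in 8 of 8 libraries, with a log2 fold change of 0.64 ± 0.09 (edgeR adjusted p = 6.76e-05, exact sign-flip permutation p = 0.00781). The values in enzyme-poor and enzyme-rich cells were 20.5 and 42.6 non-enzyme CPM in version 2 E12.5, 104.0 and 148.7 in version 2 E14.5, and 287.3 and 334.8 in version 2 E17.5. The ratio was thus smaller at the later stages of version 2. Over the 4 groups by enzyme share, Rbpjl in version 2 E12.5 ran 11.4, 28.6, 38.4 and 47.6 non-enzyme CPM from lowest to highest share. In Fev-Cre it ran 117.6, 191.1, 200.8 and 260.9 non-enzyme CPM. The call was lost in version 1 alone (0.52, edgeR adjusted p = 0.223), in version 2 alone on library totals (0.58, edgeR adjusted p = 0.0882) and without the library block (0.62, edgeR adjusted p = 1).

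Bhlha15 was higher in enzyme-rich cells in 7 of 8 libraries, with a log2 fold change of 0.70 ± 0.11 (edgeR adjusted p = 0.000222, exact sign-flip permutation p = 0.0156). It was at 3.1 and 8.4 non-enzyme CPM in enzyme-poor and enzyme-rich cells of version 2 E12.5, and at 128.3 and 158.4 in version 2 E17.5. The exception was version 1 E14.5 batch 2, with 41.2 and 35.9 non-enzyme CPM in 87 cells. Gata4 was higher in 8 of 8 libraries (0.61 ± 0.10, edgeR adjusted p = 0.000257, exact sign-flip permutation p = 0.00781). It ran 9.9, 16.1, 19.1 and 23.2 non-enzyme CPM over the 4 groups of version 2 E12.5, and 37.4, 39.1, 43.1 and 45.1 in version 2 E17.5. Proliferating cells were taken as those with any UMI of 8 proliferation genes, a rule that takes out deep cells more often than shallow ones. With them left out, which left 4 libraries in the test, Bhlha15 (0.58 ± 0.22, edgeR adjusted p = 0.265) and Gata4 (0.73 ± 0.22, edgeR adjusted p = 0.0965) were not called. Without the library block edgeR called none of the members, at log2 fold changes of 0.45 for Ptf1a, 0.54 for Bhlha15 and 0.74 for Gata4. In version 1 alone Bhlha15 (0.41, edgeR adjusted p = 0.826) and Gata4 (0.62, edgeR adjusted p = 0.49) were not called either.

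Ptf1a was higher in enzyme-rich cells in 6 of 8 libraries, with a log2 fold change of 0.47 ± 0.12 (edgeR adjusted p = 0.0214, exact sign-flip permutation p = 0.0547). In version 2 E12.5 it ran 44.3, 78.7, 108.2 and 125.2 non-enzyme CPM over the 4 groups, and in version 2 E14.5 it ran 262.4, 346.8, 371.8 and 392.5. In version 2 E17.5 the order turned, from 309.4 in the lowest to 248.9 in the highest group. That library also had 1094 non-enzyme CPM of proliferation markers in enzyme-poor and 272 in enzyme-rich cells. With proliferating cells left out by the rule given above, which left 4 libraries in the test, Ptf1a was called at 0.81 ± 0.18 (edgeR adjusted p = 0.0126). Cycling and depth cannot be told apart in that test. The call was lost without version 1 E12.5 (0.41, edgeR adjusted p = 0.096), version 2 E12.5 (0.40, edgeR adjusted p = 0.103), version 2 E14.5 (0.51, edgeR adjusted p = 0.0512) or Fev-Cre (0.49, edgeR adjusted p = 0.0625). It was also lost with Scrublet-called cells left out (0.40, edgeR adjusted p = 0.0699), at Leiden resolution 2 (0.35, edgeR adjusted p = 0.0721), in version 1 alone (0.55, edgeR adjusted p = 0.429), in version 2 alone (0.46, edgeR adjusted p = 0.17) and on library totals (0.43, edgeR adjusted p = 0.0872). In all, 13 of 25 alternatives kept it, with the loss without Fev-Cre counted under 2 names.

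Nr5a2 differed least, at 0.23 ± 0.08 (edgeR adjusted p = 0.0915, exact sign-flip permutation p = 0.0156), with 7 of 8 libraries higher in enzyme-rich cells. Its values in enzyme-poor and enzyme-rich cells of version 2 were, in order of stage, 59.8 and 64.1, then 57.4 and 63.1, then 86.3 and 82.7 non-enzyme CPM. The log2 ratios in these libraries were 0.10, 0.14 and -0.06. Without version 2 E17.5 it passed the test at 0.21 ± 0.07 (edgeR adjusted p = 0.0391). In version 1 E17.5 enzyme-poor cells held 2916 non-enzyme CPM of mesenchymal and 28367 of hormone markers, against 23.0 and 1659 in enzyme-rich cells. The 8.3 and 46.1 non-enzyme CPM of Nr5a2 there thus compare cells of unlike content, as do the values of the other members.

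Cell by cell the relation to enzyme share was weak in the version 2 libraries. After thinning, Spearman's rho between the UMIs of a member and the enzyme share, given as a description, was -0.04 to 0.47 over the 8 libraries for Ptf1a and 0.06 to 0.48 for Rbpjl. In the 4 version 2 libraries, which hold most of the cells, it was -0.04 to 0.19 for Ptf1a and 0.06 to 0.18 for Rbpjl. For Nr5a2 it was -0.11 to 0.09 over the 8 libraries. For Bhlha15 it was -0.03 to 0.40 and for Gata4 -0.00057 to 0.35, each over the 7 libraries that gave a value. The highest value was in version 1 E17.5, from 25 cells, for each of these genes but Gata4, whose highest was in version 1 E14.5 batch 2, from 83 cells.

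Ptf1a and Rbpjl, which act in 1 complex, were seen together at 1.01 to 2.1 times the rate that their single shares give. Both Ptf1a and Rbpjl were seen in 1.1% of acinar cells of version 2 E12.5, 9.1% of version 2 E14.5, 11.8% of version 2 E17.5 and 12.7% of Fev-Cre. These are 1.41, 1.01, 1.03 and 1.11 times the product of the single shares. In version 1 the ratio was 1.02 to 2.1, the highest from 7 cells of version 1 E17.5. Other pairs reached similar or higher ratios from few cells, such as Rbpjl with Bhlha15 (2.73 from 3 cells of version 2 E12.5 and 2.25 from 6 cells of version 1 E17.5) and Ptf1a with Nr5a2 (1.35 from 45 cells of version 2 E12.5). At 2000 UMIs per cell, 71.0% of version 2 E12.5 acinar cells had a UMI of none of the members, against 36.0% at version 2 E14.5 and 29.3% at version 2 E17.5. Of the cells kept after thinning, none in any library had a UMI of all 5.

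The genes most like each member were found from log2(CPM + 10) over 39 sums, 1 for each library of acinar, ductal, Ngn3+, Fev+ and hormone+ cells, among 12591 genes. The sums share libraries and differ mainly by class, so the correlations are descriptions. For Ptf1a the nearest were P2rx1 (Pearson's r = 0.97), Gm13344 (0.96), Nupr1 (0.96), Bok (0.95) and Rbpjl (0.94). For Rbpjl they were the lipase Cel (0.97), Nupr1 (0.95), Ptf1a (0.94), the cholecystokinin receptor Cckar (0.94) and Reep5 (0.94). Ptf1a and Rbpjl were thus each among the other's 5 nearest genes.

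Bhlha15 lay nearest to Erp27 (0.93), which codes for a protein of the endoplasmic reticulum, and to the trypsinogen-type genes Try10 (0.92), Prss1 (0.92), Gm10334 (0.92) and Prss3 (0.91), whose near-identical copies can share reads. Gata4 lay nearest to Lgi2 (0.87), Mat1a (0.86), Smpdl3b (0.86), Pde8b (0.86) and Gcat (0.85), with Ptf1a next (0.85). Nr5a2 lay nearest to Tkt (0.95), Prps2 (0.93), Chmp4c (0.93), Adamts9 (0.93) and Slc16a1 (0.92). Tkt and Prps2 code for enzymes of the pentose phosphate pathway and of phosphoribosyl pyrophosphate synthesis. The member nearest to Nr5a2 was Ptf1a, at rank 1062 (0.62).

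The partners of these factors lay on both sides. Of the 4 PTF1 partners, none was called higher in acinar than in ductal cells and 1, Tcf3, was called lower (-0.60 ± 0.19, edgeR adjusted p = 0.03), against 14.2% and 16.2% of all genes, so the count is close to the background. Their median log2 fold change was -0.06, against -0.05 over all genes tested. Rbpj, which Rbpjl replaces in the complex, had a median of 16.7 CPM in acinar and 23.5 CPM in ductal cells. It was not called, and the sign of its log2 fold change turned with the scaling, from 0.11 ± 0.14 with TMM factors (edgeR adjusted p = 0.619) to -0.29 ± 0.20 on library totals (edgeR adjusted p = 0.247). Tcf3 also fell in acinar cells from E14.5 to E17.5 (-1.64 ± 0.34, edgeR adjusted p = 0.0149). Gata6 was called lower in acinar than in ductal cells (-0.86 ± 0.19, edgeR adjusted p = 0.00404), opposite to Gata4, and the GATA cofactor Zfpm1 was called higher (1.48 ± 0.28, edgeR adjusted p = 0.00145). Nr0b2, a nuclear receptor partner that can repress Nr5a2, was called higher in acinar than in ductal cells (1.00 ± 0.27, edgeR adjusted p = 0.0122), though not on library totals (0.65 ± 0.33, edgeR adjusted p = 0.121), and higher than in endocrine cells (3.65 ± 0.23, edgeR adjusted p = 2.1e-07).

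Other regulators also differed between acinar and ductal cells. Xbp1, a regulator of the secretory stress response, was called higher in acinar cells (2.15 ± 0.15, edgeR adjusted p = 5.82e-07), and so was Myc (2.85 ± 0.25, edgeR adjusted p = 6.85e-06). Xbp1 was also called higher in enzyme-rich acinar cells (0.48 ± 0.09, edgeR adjusted p = 0.00156). Among the trunk and progenitor factors, Nkx6-1 was called lower in acinar than in ductal cells (-1.48 ± 0.27, edgeR adjusted p = 0.00128), while Pdx1 (0.12 ± 0.15, edgeR adjusted p = 0.612) and Foxa2 (-0.04 ± 0.13, edgeR adjusted p = 0.873) were not called. Between enzyme-rich and enzyme-poor acinar cells, Nkx6-1 was not called (-0.36 ± 0.14, edgeR adjusted p = 0.159).

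Genes downstream of Bhlha15 and the proteins of the zymogen granule, the vesicle that stores digestive enzymes, were called in both directions between classes. Of 4 Bhlha15 targets, 2 were called higher in acinar than in ductal cells (14.2% of all genes) and 1, Gjb1, lower (-0.40 ± 0.14, edgeR adjusted p = 0.0441; 16.2% of all genes). Among the granule proteins, Rab27b was called lower there (-0.66 ± 0.22, edgeR adjusted p = 0.0404). Those called higher, Gp2, Zg16 and Cuzd1, had acinar medians of 0.70, 0.56 and 0.026 CPM and ductal medians of 0.042, 0 and 0 CPM. Their high levels were those of the E17.5 acinar libraries, so nothing is read from their number. Rab3d was at a median of 59.5 CPM in acinar and 93.1 CPM in endocrine cells (-0.69 ± 0.42, edgeR adjusted p = 0.18). From E14.5 to E17.5, where 3.67% of all genes were called higher, 2 of 4 Bhlha15 targets were called higher, Rab3d (1.82 ± 0.43, edgeR adjusted p = 0.0258) and Atp2c2 (4.53 ± 0.53, edgeR adjusted p = 0.000607). From E12.5 to E17.5 they were joined by Rab26, and Gjb1 was not called. Among the granule proteins, Zg16, Gp2 and Cuzd1 were at 0 to 2.36 CPM in the earlier libraries and passed the filter only through the E17.5 ones, so that nothing is read from how many were called. Sycn, or syncollin, had 10.8 to 41.8 CPM in the E14.5 libraries and 1073 to 2097 CPM in the E17.5 libraries (6.42 ± 0.60, edgeR adjusted p = 0.000147), and Zg16 was at 0 to 1.06 and 661 to 705 CPM. Between E12.5 and E14.5, where Bhlha15 itself was called, edgeR called 0 of 4 targets, against 0.153% of all genes called higher, with 2 of them at an unadjusted p below 0.05. Rab3d came nearest among the targets (2.74 ± 0.52, edgeR adjusted p = 0.06), and DESeq2 called it (2.69 ± 0.50, DESeq2 adjusted p = 3e-05). The granule protein Rab27b (2.92 ± 0.62, edgeR adjusted p = 0.0984) was also called by DESeq2 (2.96 ± 0.68, DESeq2 adjusted p = 0.00273). The edgeR log2 fold changes of Rab3d and Rab27b were larger in this first step than from E14.5 to E17.5, where that of Rab27b was 1.07 ± 0.51 (edgeR adjusted p = 0.22), and the difference between steps was not tested. In the enzyme split, 3 of 4 Bhlha15 targets were called higher in enzyme-rich cells, where 3.61% of all genes were, with Rab3d among them (0.72 ± 0.08, edgeR adjusted p = 4.77e-06). Of the granule proteins called there, Gp2, Zg16, Cuzd1 and Dmbt1 were at 0 to 2.36 CPM in acinar cells before E17.5. Nothing is therefore read from how many granule proteins were called in the split. Of 29 enzyme genes tested, 28 were called higher in acinar than in ductal cells, against 14.2% of all genes. The naming of the clusters used part of these enzymes, and several of the rest had a ductal median of 0 CPM, so nothing is read from this count.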

How the data were processed

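Embryonic mouse pancreas was dissociated and its cells were captured by droplet (10x Chromium) from 8 independent pools of embryos. The authors aligned the reads to mm10 with Cell Ranger 1.1 (version 1 kits) or 2.1 (version 2 kits, per the submitters' processing notes) and deposited filtered matrices of raw counts, each the number of UMIs per gene and cell barcode, with no normalisation. For Fev-Cre the matrix aligned with the reporter sequences was used, and a second matrix of the same library without them was not.

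Barcodes with at least 200 genes were kept. Each library was clustered (2000 variable genes, 20 principal components, 20 neighbours by scikit-learn 1.9.0, leidenalg 0.10.2 at resolution 1, seed 1) with the 5 members held out of the variable genes and of the naming markers. Clustering was run on all cells, then on the epithelial cells and then on the endocrine cells. A cluster took a class name from at least 3 markers at a fold of 1.5 or more in at least 10% of its cells. The ties allowed between names (0.5 within and 0.7 between compartments) and the treatment of keratinised cells were set after the clusters had been seen. The 3087 cells of unnamed clusters and 895 mixed-marker cells were left out, though both held member UMIs. Mixed-marker cells were sought only in epithelial clusters, so such cells stayed in the immune, erythroid, mesothelial and endothelial classes. Doublets were otherwise not removed in the main analysis. Scrublet (run in Scanpy 1.11.5) at an expected rate of 0.06 marked from 0.065% of cells (version 1 E12.5, below what a working caller marks) to 14.4%, and leaving those cells out was an alternative. Of 31 enzyme genes listed, Amy2b was not found in the matrices.

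UMIs were summed per library and class (at least 20 cells), and CPM is the summed count scaled to a common total. Sums were compared with edgeR 4.0.16 (R 4.3.3, filterByExpr, TMM, quasi-likelihood test, Benjamini-Hochberg adjustment over all genes tested, called at adjusted p below 0.05), with library as a block for classes and enzyme groups and kit version as a term for stages. Same-library deviations of the classes from their means correlated at 0.54 to 0.93 over 4742 genes, and the pairing comes from the classes of a library being parts of 1 suspension. Per-library log2 ratios (1 CPM added) were tested by an exact two-sided sign-flip permutation test. The 2 wells of version 2 E17.5 were counted as 1 library. Since embryos were pooled, p-values measure the spread between pools. Intervals (95%, exact Poisson) and floors (a fixed 3 counts) cover counting error only. Recovery was measured on simulated counts with genes changed by 2-fold and by 4-fold. For acinar against ductal cells over 13657 genes, 61% of 95 and 87.2% of 94 changed genes were recovered, and 12 unchanged genes were called. For E17.5 against E14.5 over 13112 genes, 2.04% of 98 and 38.1% of 97 were recovered, with 10 false calls. For the enzyme split over 12571 genes, 82.8% of 93 and 98.95% of 95 were recovered, with 29 false calls. A call near the threshold is thus less sure than its adjusted p says. Alternatives covered DESeq2 1.42.0, its size factors, library totals with no TMM factors, filters, clustering, doublets, proliferating cells, kit versions, each library in turn and the block. Proliferating cells were all cells with any UMI of 8 proliferation genes, so the rule depends on depth.

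The members and gene lists were chosen with earlier results of these data known. Named genes are the members, the 5 genes most like each by Pearson's r, and genes of the listed partners, factors and targets, with those singled out beyond counts chosen after their values were seen. Some listed factors are not reported here. Promoter windows are 250 bases long and come from RefSeq (GRCm38.p6), and gene positions from GENCODE.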

Additional observations from a re-analysis of the deposited data

Results flagged for a closer look

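In each group of 8 per-library log2 ratios, and in smaller ones of at least 4, the highest and lowest library was compared with its neighbours (25 groups, of which chance flags about 1 in 20). The ratio of Nr5a2 between acinar and ductal cells was -2.14 in version 1 E17.5, against -0.32 to 0.46 in the other libraries. It rests on 3 acinar UMIs in 42 cells that also carried mesenchymal and hormone markers, whose part was not tested. In the enzyme split the ratio of Nr5a2 was 2.33 in the same library, against -0.06 to 0.66 elsewhere. The ratio of Bhlha15 in the enzyme split was 2.83 in version 1 E12.5, against -0.19 to 1.21 elsewhere, and comes from 0 UMIs in enzyme-poor and 2 UMIs in enzyme-rich cells.

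Some ratios ran in opposite directions at different stages in every library, and these differences were not tested. Nr5a2 was higher in acinar than in ductal cells in all 4 libraries at E14.5 (mean log2 ratio 0.29) and lower in both at E17.5 (-2.14, from 3 acinar UMIs, and -0.19). The value of -0.19 holds for shares of all UMIs, while with enzyme UMIs left out of the totals acinar cells of that library were higher than ductal cells (85.0 against 75.7 non-enzyme CPM), so the direction at E17.5 depends on the scaling. Gata4 was lower in ductal than in endocrine cells in both E12.5 libraries (mean log2 ratio -1.03), and higher in ductal cells in the 4 libraries at E14.5 (0.43 to 0.69) and in both at E17.5 (0.91 and 2.54). The value of 2.54 comes from version 1 E17.5, where no Gata4 UMI was seen in 270 endocrine cells.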

How the results depend on the processing

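Over 772 values of the members under alternatives, 671 kept their direction and side of the threshold, 42 lost a call, 40 gained one and 19 turned direction. The 4 member calls of acinar against ductal cells and the 5 of acinar against endocrine cells held when any 1 library was left out. Where no value is given beside a change, the cause was not tested.

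For acinar against ductal cells the genes called were 1191 with proliferating cells left out, 1686 without the replicate block, 1303 in version 1 and 1177 in version 2 alone, and 2765 to 4401 leaving out 1 library (4 to 5 members). For acinar against endocrine cells they were 4448 without proliferating cells, 3855 in version 1 alone and 6823 to 8266 leaving out 1 library. For ductal against endocrine cells they were 5251 (1 member, 4 tested) without the replicate block, 4122 (1 member, the 1 tested) in version 1 alone and 6967 to 8593 (3 to 4 members) leaving out 1 library, and the members called were 1 without proliferating cells, where the other 4 fell below the filter, and 2 in version 2 alone.

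For E14.5 against E12.5 the genes called were 135 (3 members) by DESeq2, 418 (4 members) without the filter, 85 without Scrublet-called cells, 220 (4 members) at Leiden resolution 2, 151 without Fev-Cre, 9 (1 member) without proliferating cells, 177 with mixed-marker cells kept, an alternative chosen after seeing the data, 1 (0 members) without the kit term and 12 (1 member) with enzymes out of the library sizes. Leaving out 1 library gave 0 to 151 (0 to 4 members), with 65 without version 2 E17.5 and the 0 by edgeR without version 2 E12.5, where 391 genes had an unadjusted p below 0.05. For E17.5 against E14.5 they were 1347 (2 members) by DESeq2, 1922 (2 members) without the filter, 1773 (2 members) at Leiden resolution 2, 282 (2 members) without proliferating cells, 1541 (2 members) with mixed-marker cells kept and 590 without the kit term, with 2 members also with DESeq2 size factors and without Scrublet-called cells, and 184 (without version 2 E17.5) to 1182 (0 to 2 members) leaving out 1 library, the next lowest being 472 without version 1 E14.5 batch 2. For E17.5 against E12.5 they were 2038 (4 members) without the filter, 2046 (4 members) at Leiden resolution 2, 440 without proliferating cells and 1873 (4 members) with mixed-marker cells kept, with 4 members also without Scrublet-called cells, and 64 to 1747 (1 to 4 members) leaving out 1 library, with 192 without version 2 E17.5. Version 1 E12.5, E17.5 and E14.5 batch 2 make up 1 collection batch. Leaving out batch 1, so that version 1 stages are compared within it, gave 25 genes (2 members) for E14.5 against E12.5 and 889 (1 member) for E17.5 against E14.5, with 2 members for E17.5 against E12.5. No block by collection day was run over version 2, whose stages were each collected on a day of their own.

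The E17.5 against E14.5 log2 fold changes of Ptf1a, Nr5a2 and Gata4, all below 0 and not called, turned to 0.12, 0.15 and 0.11 at Leiden resolution 2, 0.57, 0.45 and 0.43 without proliferating cells, 0.18, 0.17 and 0.19 with mixed-marker cells kept, and 0.45, 0.66 and 0.55 without version 1 E17.5. Without Scrublet-called cells Nr5a2 was 0.0053 and Gata4 0.0067, without version 1 E14.5 batch 1 Nr5a2 was 0.034, and without batch 2 Gata4 was 0.0055. The lowest values leaving out 1 library other than version 2 E17.5 were -0.27 for Ptf1a, -0.34 for Nr5a2 and -0.29 for Gata4, and without that library they were -1.14, -2.57 and -2.14. From E12.5 to E17.5, Nr5a2 was -2.05 and Gata4 -0.71 without version 2 E17.5.

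In the enzyme split the genes called were 398 without Fev-Cre, 134 (2 members) without proliferating cells, 0 (0 members) without the replicate block, where 129 had an unadjusted p below 0.05 by edgeR, 39 (0 members) in version 1 and 266 in version 2 alone, 412 after thinning, and 348 to 1035 (3 to 5 members) leaving out 1 library, the highest from version 2 E17.5 and the next, 767, from version 1 E17.5. The members lost without proliferating cells were Bhlha15 and Gata4, in a test of 4 libraries. Few UMIs stand behind Bhlha15 in version 1 E12.5 (2) and behind Nr5a2 and Gata4 in the acinar cells of version 1 E17.5 (3 each).

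On library totals without TMM factors, chosen after seeing the data, the genes called were 2639 for E17.5 against E14.5 and 2744 for E17.5 against E12.5, where Nr5a2 turned to -0.26, not called. With version 1 E17.5 also left out they were 119, 3317 and 3775 (4 members) for the 3 stage comparisons in the order above. In version 2 alone on library totals they were 842 for acinar against ductal cells and 186 (0 members) in the enzyme split, where the 4 members were at an adjusted p of 0.0741 to 0.285 by edgeR.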
